A study of Mus musculus with 5 samples.

Results

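Genes of voltage-gated and potassium channels were chosen by their symbols alone, with no use of the signals. A probe set belonged to the group if it was listed for a single gene whose symbol begins with Kcn (potassium channels), begins with Cacna, Cacnb or Cacng (calcium channels), or joins Scn, a number and the letter a or b (sodium channels). Of 45101 probe sets on the array, 252 met this rule, and they stand for 119 of the 18193 genes with such a probe set. The genes comprise 84 potassium, 11 sodium and 24 calcium channel symbols. Among the potassium symbols, 3 are not channel subunits: Kcnq1ot1 is a long non-coding RNA, and Kcnmb4os1 and Kcnmb4os2 are antisense RNAs. A filter on low signal kept 154 of the probe sets, which left 93 genes, and the 26 genes under it are described apart.

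The arrays measured mouse brain total RNA that had been bound in vitro to MA-Brent-1, an mRNA export factor related to REF and Aly. RNA eluted from the deiminated protein was measured on 2 arrays, RNA eluted from the non-deiminated protein on 2 arrays, and the starting RNA, which met no protein and is called input here, on 1 array. Deimination converts arginine residues of a protein to citrulline. In each bound group the title of 1 sample calls the protein MA-Brent-1 and that of the other REFP2; a single title speaks of a biological repeat. Strain, age, sex and brain region are not given in the sources used here, nor is the origin of the other repeats, so all p-values reflect the spread between these arrays alone, and that spread may be technical. RNA eluted from an unrelated protein was not analysed here, so a difference between bound RNA and input holds all steps of binding and elution together.

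Ion channels set the electrical behaviour of neurons. Sodium channels start and carry the action potential, potassium channels end it and hold the resting potential, and calcium channels turn it into calcium entry, transmitter release and gene regulation. Each kind is built from a pore-forming subunit and smaller accessory subunits that steer its traffic and gating. Many of these mRNAs are long, and their proteins are sorted to distinct places such as the axon initial segment, the node of Ranvier, dendrites and presynaptic terminals.

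Signals are linear intensities in arbitrary units, with a common trimmed mean on each array, and they are given in the order deiminated, non-deiminated, input. Over the channel probe sets the median signal ran from 36.1 to 47.5 on the bound arrays and was 89.3 on the input array. Over all probe sets but the controls it ran from 29.8 to 41.4 and was 102, so a brighter input median was not particular to channels. Pearson's r of the log2 signals was taken across the 154 channel probe sets kept, which are not independent replicates. It was 0.883 to 0.938 between bound arrays and 0.258 to 0.303 between a bound array and the input array. Across all probe sets kept, r was 0.897 to 0.971 and 0.321 to 0.390. The hybridisation controls, which are transcripts added in fixed amounts, had a mean log2 signal of 17.04 on the input array, 10.08 and 10.59 on the first array of each bound group and 12.60 and 13.04 on the second. The 12 neuron markers summed to 24061 to 28995 on the bound arrays and to 12430 on the input array, and the 7 astrocyte markers to 18331 to 25317 and 6426. The 10 muscle markers summed to 119 to 208 on the bound arrays and to 928 on the input array, and the 5 kidney markers to 54.3 to 109 and 533. No marker was at 0 on any array, but some signals were very low, such as 0.52 for the testis marker Tnp1 on deiminated replicate 1. A signal above 0 is therefore not read as detection. The parts of the controls and of these markers in the results below were not tested.

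Channel genes split in both directions between bound RNA and input, in about the shares of all genes. With limma's moderated test and a Benjamini-Hochberg adjusted p under 0.05, 28 of the 93 genes were called higher in bound RNA (30.1%), against 31.6% of all 13055 genes. A further 19 were called lower (20.4%), against 24.8% of all genes, and 46 were not called. The median log2 difference, bound minus input, was 0.25 over channel genes and 0.12 over all genes. With no filter, 43 of the 252 probe sets were called higher (17.1%), where 15.6% of all probe sets were, and 73 were called lower (29.0%), where 36.2% of all probe sets were. All differences are on the scale of log2(signal + 4.18), which understates the change of dim probe sets, and the input side of each rests on 1 array assumed to vary like the 4 bound ones. Many directions also rest on how the arrays were scaled. With each array centred on its median, the median of all genes moved to 1.63, with 49 channel genes called higher and 1 lower, and scaling to the hybridisation controls moved it to 4.80, with all 91 channel genes then kept above 0, 0 called by limma and 41 at an unadjusted p under 0.05. Calls were 59.6% higher as deposited, 66.1% higher after quantile normalisation, 98% higher after median centring, 76.5% higher with a stricter filter and 50% higher with none. The shifts of subfamilies are therefore given relative to the median of all genes under the same scaling. Counts of calls in subfamilies and lists are to be read beside the 31.6% higher and 24.8% lower of all genes.

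**Figure D1:**
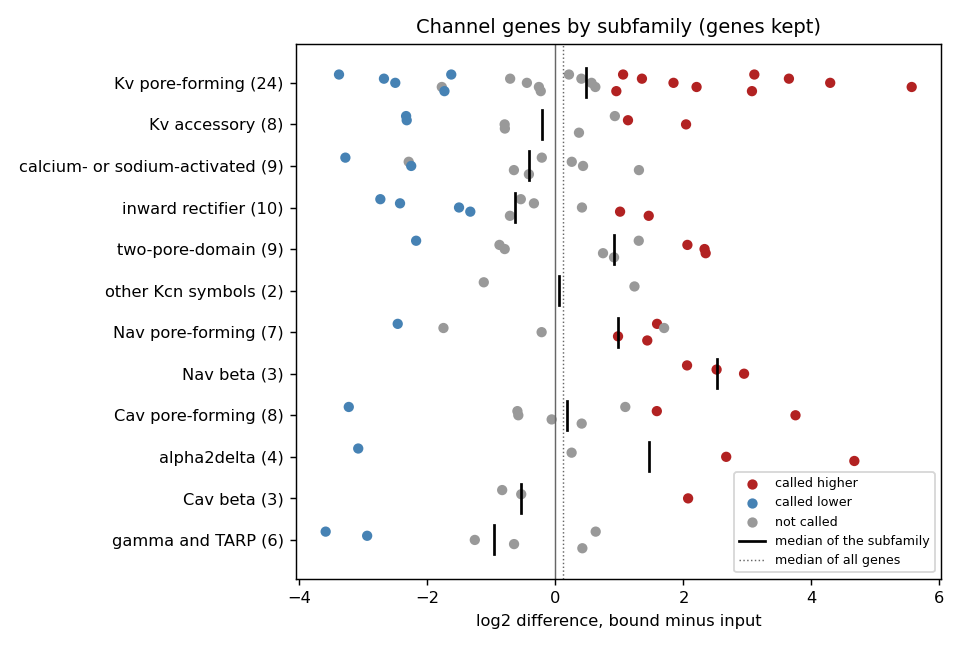
Each point is 1 of the 93 channel genes kept, placed by its log2 difference, bound minus input (x axis), in its subfamily (y axis, with the number of genes kept). Red points were called higher and blue points lower by limma, black bars are subfamily medians, and the dotted line is the median of all genes (0.12); the 3 sodium channel beta subunits all lie above 2, while every other subfamily with over 4 genes has points on both sides of 0.

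The voltage-gated potassium channel pore subunits had the widest range, from -3.38 to 5.57. Of the 24 kept, 10 were called higher (41.7%) and 5 lower (20.8%), against 31.6% and 24.8% of all genes. Their median lay 0.36 above that of all genes. After quantile normalisation that median lay 0.27 below it and after cyclic loess 0.09 below, so its direction against all genes turned with the scaling.

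Kcna2, a subunit of the delayed rectifiers of axons that sit near the nodes of Ranvier, had the largest rise of all channel genes. Its signals were 667 and 712 in deiminated-bound RNA, 594 and 378 in non-deiminated-bound RNA, and 7.98 in the input. All 4 bound arrays lay far above the input array, and the difference was 5.57 ± 0.39 (limma standard error, n = 4 bound arrays and 1 input; adjusted p = 5.82e-07). The input signal lay near the pseudocount, so the size depends on it: the difference was 5.99 with a pseudocount of 1.05 and 4.57 with 16.7. The other kept probe set of Kcna2 also rose, by 3.94 (187, 321, 172 and 348 on the bound arrays, 12.1 on the input array).

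Kcns2, an electrically silent subunit that modifies other channels, read 483 and 509, then 463 and 419, and 19.9 in the input. These bound signals lay within 1.21-fold of each other, and the rise was 4.29 ± 0.37 (adjusted p = 2.20e-06), but 1.07 when both kept probe sets of Kcns2 were averaged. Kcnf1, another silent subunit, rose by 3.65 ± 0.50, from 9.72 in the input to 166 and 237 in deiminated-bound and 179 and 119 in non-deiminated-bound RNA (adjusted p = 9.95e-05), and the average of its probe sets was not called (1.58, adjusted p = 0.0546). On the brightest probe set, both silent subunits stood above the input on every bound array.

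The A-type channels of somata, dendrites and axons diverged on their brightest probe sets. Kcnd2, the main pore subunit of the dendritic A-type current, read 1649 and 989, then 1434 and 852, against 134 in the input. Every bound array was at least several times brighter than the input, and the rise was 3.11 ± 0.40 (adjusted p = 6.36e-05). The 3 kept probe sets of Kcnd2 ranged from -0.77 to 3.11, with 2 called higher, and their average gave 1.40 (adjusted p = 0.00340). Kcna4, an axonal A-type subunit, rose by 3.07 ± 0.49, with 238 and 270, then 137 and 307, against 23.5 (adjusted p = 0.000300). Kcnd1, a close relative of Kcnd2, fell by 2.50 on the log2 scale (SE 0.49; adjusted p = 0.00135), from 401 in the input to 60.1 and 87.3, then 59.9 and 65.1. The 3 kept probe sets of Kcnd1 ranged from -3.42 to 0.47, with 2 called lower. Kcnd3 was not called, at 0.56, but its other kept probe set was called lower (-2.32).

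Kcnc1, which lets fast-spiking neurons fire at high rates, rose by 1.35 ± 0.37 (adjusted p = 0.00860). Its signals were 2224 and 3123, then 2082 and 2009, against 908. The 3 kept probe sets of Kcnc1 ranged from -1.17 to 1.35, with 1 called higher and 1 called lower. Kcnq3, a subunit of the M-current that restrains repetitive firing, read 778 and 1017, then 697 and 785, against 417, a rise of 0.95 ± 0.34 (adjusted p = 0.0312). In both, the bound arrays lay above the input, but cyclic loess turned the sign, to -0.12 for Kcnc1 and -0.36 for Kcnq3, and neither was called there or after quantile normalisation. Without deiminated replicate 1 or 2 the Kcnq3 call was lost (adjusted p = 0.0557 and adjusted p = 0.120). Kcna1, which assembles with Kcna2 in axons, read 666 and 780, then 762 and 939, against 935. The input thus lay among the brighter bound arrays, and the difference of -0.26 ± 0.34 was not called (adjusted p = 0.531), while it became 1.30 after median centring and -1.61 after cyclic loess, both called.

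The largest falls among these pore subunits were of Kcnh5, an ether-a-go-go channel, and Kcng4, a silent subunit. Kcnh5 had 36.7 and 11.3, then 28.2 and 25.8, against 288 in the input, a fall with a difference of -3.38 ± 0.75 (adjusted p = 0.00284). Kcng4 had 49.3 and 50.7, then 46.6 and 17.0, against 266, with -2.68 ± 0.66 (adjusted p = 0.00474). Neither reached the input level on any bound array. Kcnh5 reached the cutoff of the filter only with its input signal, so its direction is in part a description of that choice. With no filter limma still called it lower (adjusted p = 0.0057).

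**Figure D2:**
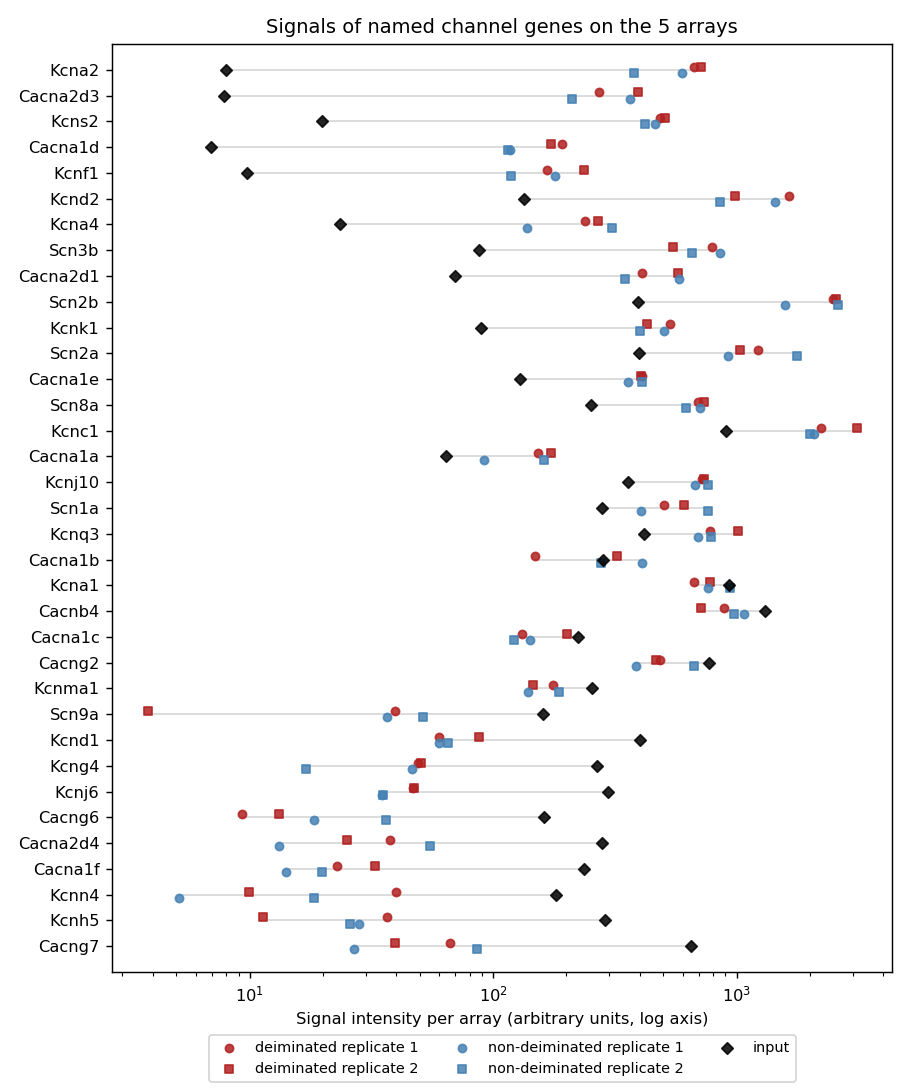
Signal intensity (x axis, log scale, arbitrary units) on the 5 arrays for 35 named channel genes (y axis), ordered by the difference between bound RNA and input. Red marks are deiminated-bound, blue marks non-deiminated-bound and black diamonds input arrays; the input array lies far left of the bound arrays for genes at the top, such as Kcna2 (7.98 against 378 to 712), and far right for those at the bottom, such as Cacng7 (647 against 26.7 to 85.5).

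The accessory subunits of voltage-gated potassium channels were called higher in 2 cases and lower in 2 of the 8 kept. Kcnip2 and Kcnab2, a calcium-binding partner of A-type channels and a cytoplasmic beta subunit, rose by 2.04 ± 0.39 and 1.13 ± 0.44. Kcnip1 and Kcne4 fell, with -2.33 ± 0.64 and -2.32 ± 0.81. Kcne4 was among the genes with the widest scatter over the bound arrays, at 28.2, 5.30, 42.0 and 75.5.

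Calcium- and sodium-activated potassium channels, which follow the action potential and set its afterpotential, had 0 of 9 genes called higher and 2 called lower by limma. Their median lay 0.54 below that of all genes, and 0.33 to 0.49 below it under the 4 other scalings, but 0.31 above it when all kept probe sets of a gene were averaged. Kcnn4, which is known mainly from blood cells, had signals of 39.9 and 9.89, then 5.10 and 18.3, against 181 in the input. It fell, with -3.28 ± 0.96 (adjusted p = 0.0116), and its bound signals were 7.83-fold apart; after cyclic loess it was not called (-1.47, adjusted p = 0.207). Kcnma1, the pore of the large-conductance channel of neurons and muscle, read 176 and 146, then 139 and 186, against 254. The input was brighter than each bound array, but the difference of -0.65 ± 0.41 was not called (adjusted p = 0.190), and other probe sets of Kcnma1 disagreed with it, as given below.

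Inward rectifiers, which hold the resting potential and clear extracellular potassium, had 2 of 10 genes called higher and 4 called lower. The median lay 0.75 below that of all genes and 0.73 to 0.98 below it under the 4 other scalings. It lay only 0.24 below when all kept probe sets of a gene were averaged, and 0.21 below with no filter. Kcnj6, a subunit of G-protein-gated channels, read 46.7 and 47.4 on the deiminated arrays, 35.4 on the brighter non-deiminated array, with the other just under it, and 295 in the input. Arrays of the same bound group nearly coincided, and the difference was -2.74 ± 0.58 (adjusted p = 0.00202). Kcnj10, the potassium-buffering channel of astrocytes and oligodendrocytes, went the other way, at 721 and 736, then 673 and 764, against 357. Its bound signals lay within 1.13-fold of each other, the least of all channel genes, and the rise was 1.01 ± 0.33 (adjusted p = 0.0213). Quantile normalisation ended this call (0.69, adjusted p = 0.0682), as did leaving out deiminated replicate 1 (1.02, adjusted p = 0.0622) or 2 (1.00, adjusted p = 0.0657), and cyclic loess gave -0.27.

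The leak channels with tandem pore domains, which set the background potassium conductance, had 3 of 9 genes called higher and 1 called lower. Kcnk1, a weakly inward-rectifying leak channel found in neurons and astrocytes, rose by 2.33 ± 0.36 (adjusted p = 0.000258), with 534 and 428, then 505 and 401, against 88.9. Its other kept probe set had a positive difference too. The subfamily median lay 0.79 above that of all genes and 0.64 to 1.65 above it under 3 other scalings, but 0.22 below it after scaling to the hybridisation controls.

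Sodium channels had the highest share of calls in 1 direction among the 3 ions, with a median difference of 1.51. Of the 10 kept genes, 6 were called higher (60%) and 1 lower (10%), against 31.6% and 24.8% of all genes. The median lay 1.39 above that of all genes and 0.44 to 1.69 above it under the 4 other scalings. However, only 3 of the 10 genes were called higher after cyclic loess, and 3 when all kept probe sets of a gene were averaged. With no filter, 8 of the 30 sodium channel probe sets were called higher and 8 lower (26.7% each), against 15.6% and 36.2% of all probe sets. The 3 beta subunits measured, which anchor the pore to the cell surface and the cytoskeleton, were all called higher. Scn3b read 795 and 546, then 851 and 653, against 87.3 in the input, a rise of 2.95 ± 0.37 (adjusted p = 4.55e-05). Scn2b read 2494 and 2562, then 1579 and 2620, against 393, a rise of 2.52 ± 0.38 (adjusted p = 0.000211). Scn4b read 1206 and 1222, then 971 and 706, against 238, a rise of 2.06 ± 0.35 (adjusted p = 0.000462). On the brightest probe set of these 3 genes every bound array lay well above the input, and the differences were positive under each of the 5 scalings, although after cyclic loess 2 of the 3 were called and after scaling to the hybridisation controls 0 by limma. Of the 3 kept probe sets of Scn2b, however, 1 was called lower (-3.06), and their average was not called (0.93, adjusted p = 0.0650).

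Of the 7 sodium channel pore subunits kept, 3 were called higher, with differences of 0.98 to 1.59, and 1 lower. Scn2a, the channel of the proximal initial segment and of unmyelinated axons, read 1225 and 1029, then 923 and 1776, against 396, a rise of 1.59 ± 0.40 (adjusted p = 0.00521). Scn8a, the channel of nodes and distal initial segments, read 695 and 736, then 710 and 619, against 252, a rise of 1.43 ± 0.34 (adjusted p = 0.00371). Scn1a, the main channel of fast-spiking interneurons, read 504 and 608, then 405 and 761, against 280, a rise of 0.98 ± 0.39 (adjusted p = 0.0490). All bound arrays lay above the input for these 3 genes, but after cyclic loess none was called (0.21 for Scn2a, 0.20 for Scn8a and -0.18 for Scn1a). Averaging all kept probe sets also ended the calls of Scn2a (0.11), for which 1 of 3 probe sets was called lower (-2.04), and of Scn8a (0.60). The Scn1a call was also lost without deiminated replicate 1 (adjusted p = 0.0556) or 2 (adjusted p = 0.0964). Scn9a, known from sensory neurons, fell, with -2.46 ± 0.90 (adjusted p = 0.0323). Its signals were 39.5 and 3.81, then 36.7 and 51.5, against 161, so that deiminated replicate 2 stood apart, and without that array the difference was -1.85 (adjusted p = 0.0460). Scn9a was no longer called with quantile-normalised arrays (-1.15, adjusted p = 0.313), cyclic loess (-1.09, adjusted p = 0.351) and median centring (-1.02, adjusted p = 0.399), without a variance trend (adjusted p = 0.0527) and with its probe sets averaged (-0.57, adjusted p = 0.551). Scn3a, Scn7a and Scn11a were not called, at -0.22, 1.70 and -1.75.

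Calcium channel genes were called higher in 5 of 21 cases and lower in 4, with a median of -0.06. Among the 8 pore subunits, Cacna1d, an L-type channel that opens at low voltages, had the largest rise. It read 191 and 172, then 117 and 115, against 6.93, a rise of 3.75 ± 0.51 (adjusted p = 8.56e-05), and its input signal again lay near the pseudocount. The probe set that stands for Cacna1d carries a suffix for probes that can match transcripts of several genes. Cacna1e, the R-type pore, read 409 and 403, then 357 and 411, against 129. With bound arrays within 1.15-fold of each other, it rose by 1.58 ± 0.35 (adjusted p = 0.00286), yet after cyclic loess it was not called (0.72).

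The pores of the main channels that drive transmitter release were not called on the brightest probe set with the deposited scaling. Cacna1a, the P/Q-type pore, read 152 and 173, then 91.5 and 162, against 63.8. The bound arrays were all brighter than the input, and the difference was 1.09 ± 0.48 (adjusted p = 0.0672; without non-deiminated replicate 1 it was 1.29, adjusted p = 0.0160). Cacna1a was called higher after quantile normalisation (2.22, adjusted p = 0.000987) and median centring (2.55, adjusted p = 0.00147), while the average of its probe sets was -0.44, with 1 of 3 called lower (-2.65). Cacna1b, the N-type pore, read 148 and 323, then 407 and 278, against 283. Its input lay within the bound range, and the difference of -0.06 ± 0.45 (adjusted p = 0.917) turned positive under 3 of the 4 other scalings; 2 further probe sets of Cacna1b were called higher, as given below. Cacna1c, the main L-type pore of brain and heart, had -0.59 ± 0.43 (131 and 201, then 142 and 122, against 223; adjusted p = 0.250), and quantile normalisation gave 0.10. Cacna1f, the L-type pore of photoreceptor terminals, fell, with -3.23 ± 0.74 (22.7 and 32.6, then 14.1 and 19.9, against 237; adjusted p = 0.00323). The retina markers with a probe set, 3 of 4 listed, summed to 69.8 to 97.1 on the bound arrays and 183 on the input array, and their part in this fall was not tested.

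The alpha2delta subunits, which carry calcium channels to the surface, differed widely among themselves. Gabapentin-type drugs bind the products of Cacna2d1 and Cacna2d2. Cacna2d3 read 273 and 392, then 365 and 211, against 7.83, a rise of 4.67 ± 0.46 (adjusted p = 6.68e-06). Cacna2d1 read 408 and 573, then 581 and 349, against 69.9, a rise of 2.67 ± 0.40 (adjusted p = 0.000193) on its brightest probe set. Of the 5 kept probe sets of Cacna2d1, however, 1 was called higher and 2 lower (-2.14 to 2.67), and their average was -0.22 (adjusted p = 0.680). Cacna2d2 was not called (1748 and 2465, then 1465 and 1977, against 1577; 0.25 ± 0.38). Cacna2d4, best known from the retina, fell, with -3.08 ± 0.76 (37.5 and 25.1, then 13.2 and 55.0, against 279; adjusted p = 0.00496). On their brightest probe sets the 4 paralogs thus ranged from far above to far below the input.

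Of the cytoplasmic beta subunits, Cacnb1 rose by 2.07 ± 0.45, and Cacnb4, the main beta subunit of the cerebellum, was not called. The other kept probe set of Cacnb1 had -0.91 and was not called. Cacnb4 read 884 and 715, then 1070 and 980, against 1309, with -0.53 ± 0.34 (adjusted p = 0.193). The input was brighter than every bound array, and the difference became -1.69 after quantile normalisation and -1.92 after cyclic loess, both called, and 1.02 after median centring.

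The gamma subunits include the TARPs, which escort AMPA receptors to synapses. Of the 6 kept, 0 were called higher and 2 lower by limma, and their median lay 1.08 below that of all genes and 0.14 to 1.42 below it under the 4 other scalings. Cacng7 had the largest fall of all channel genes, from 647 in the input to 66.3 and 39.5, then 26.7 and 85.5, with -3.59 ± 0.63 (adjusted p = 0.000603). It was the 1 channel gene still called lower after median centring (-2.07). Cacng6 followed, with -2.94 ± 0.83 (9.30 and 13.2, then 18.3 and 36.3, against 161; adjusted p = 0.0100), and this call was lost after quantile normalisation, cyclic loess and median centring. Cacng2, also called stargazin and the prototype TARP, read 486 and 466, then 386 and 667, against 772. Again the input was brightest, but the difference of -0.65 ± 0.38 was not called (adjusted p = 0.155; without non-deiminated replicate 2 it was -0.84, adjusted p = 0.0248). Quantile normalisation gave -1.69 and cyclic loess -1.86 for Cacng2, both called.

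Different probe sets of a gene often disagreed on its difference from the input. Of 37 channel genes with several kept probe sets, 9 had differences of a single sign throughout, and 8 had both a probe set called higher and a probe set called lower. Across the 90 pairs of probe sets of the same channel gene, r of the log2 signals was 0.271 to 0.348 on the bound arrays and 0.0721 on the input array, which describes pairs that share genes and are not independent. For Scn2b, probe sets gave 3.32 and 2.52 but also -3.06, where a signal of 654 in the input stood against 52.1 to 132 in bound RNA. For Kcns2 the second kept probe set gave -2.15, with 423 against 63.6 to 167, and for Kcnip2 it gave -4.09.

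Genes that were not called on their brightest probe set could be called on others. Cacna1b had 2 further probe sets that rose by 4.06 and 4.07, with input signals of 15.7 and 8.31. Kcnma1 had differences of 1.80 and 1.89 on a pair of others, and a further probe set of Kcna1 gave 1.86. Cacnb4 gave 1.00 and 3.01 on its others. Averaging all kept probe sets of a gene therefore moved single genes: Scn2b went to 0.93 (adjusted p = 0.0650), Scn2a to 0.11, Kcnc1 to 0.37, Scn8a to 0.60, Scn9a to -0.57, Kcnf1 to 1.58 (adjusted p = 0.0546) and Cacna2d1 to -0.22, and none of these was then called, while Cacna1b went to 2.69 and Cacnb4 to 1.16, both called. Under this averaging 22 channel genes were called higher and 21 lower, and 19 of the 28 first called higher remained called higher.

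**Figure D3:**
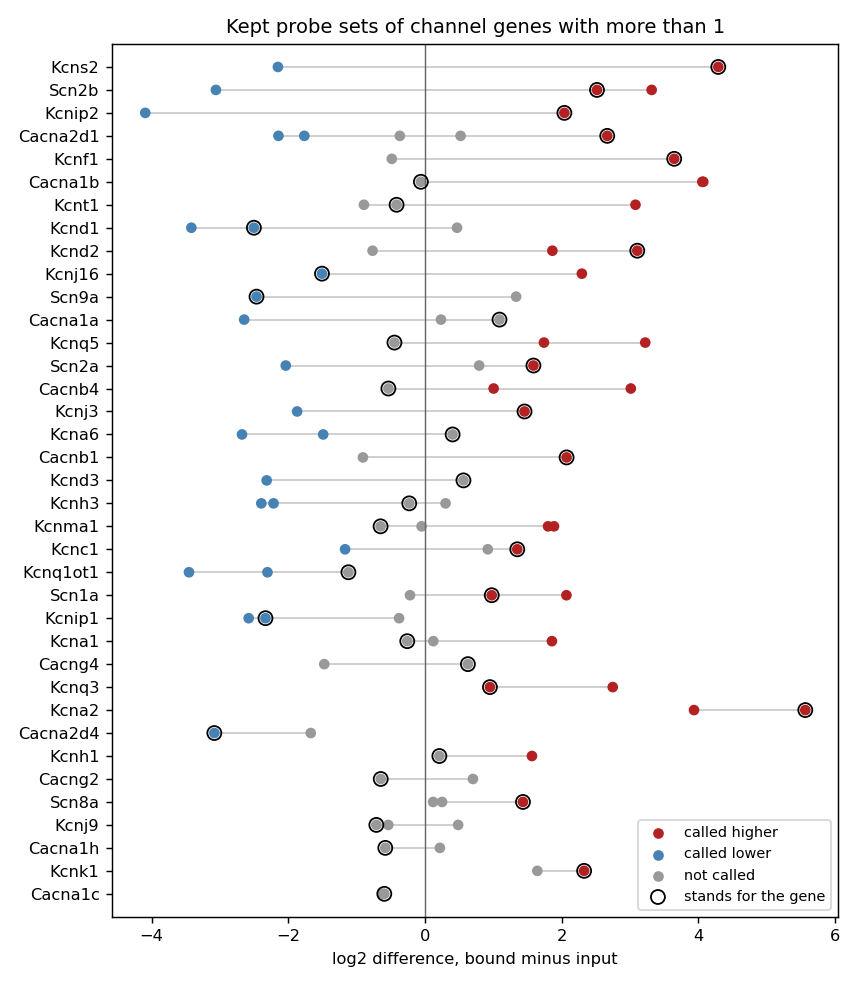
Each row is 1 of the 37 channel genes with several kept probe sets, and each point a probe set, placed by its log2 difference, bound minus input (x axis); the ringed point is the probe set of highest mean signal, which stands for the gene. Red and blue mark probe sets called higher and lower by limma; both colours meet on 8 rows, such as Scn2b with 3.32, 2.52 and -3.06, while both points of Kcna2 are red (3.94 and 5.57).

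Channels used mainly by neurons and channels used mainly elsewhere were listed from general knowledge of where they act. Of 44 kept genes of neuronal use, 20 were called higher (45.5%) and 5 lower (11.4%), against 31.6% and 24.8% of all genes. Their median was 0.94, which lay 0.82 above that of all genes and 0.25 to 0.81 above it under the 4 other scalings. Only 11 were called higher, and 7 lower, after cyclic loess, and 16 were called higher when all kept probe sets of a gene were averaged. Quantile normalisation gave 23 called higher, median centring 30 and hybridisation control scaling 0 by limma. The shares of all genes called under these settings are not given here, so these counts are not set against them. The sum of the neuron markers was higher on the bound arrays too, as given above. Of these 12 markers 10 were called higher, while for 1, Camk2a, the input was brighter than every bound array (-1.11). Such calls were not particular to neurons. Of the kept markers, 4 of 7 for astrocytes, 3 of 5 for oligodendrocytes and 3 of 6 for microglia were called higher. By limma, 0 of 4 for endothelium and 0 of 5 for choroid plexus were. Of the channels used mainly outside the brain, 12 had a probe set and 5 were kept. In these 5 the input was brighter than every bound array (Kcnn4, Kcnu1, Kcna7, Cacna1f and Cacng6, with a median of -2.29), and 3 were called lower. Of these, Kcnn4, Cacna1f and Cacng6 reached the cutoff of the filter only with their input signal. Kcna7 and Kcnu1 also reached it on the bound arrays alone. The direction of this list is therefore in part a description of that choice and no support. The sums of the muscle and kidney markers were higher on the input array too, but not every marker was. Under the filter were 8 of the 10 muscle and 2 of the 5 kidney markers, and the muscle marker Acta1 had a positive difference (0.60). The part of these markers in the falls was not tested.

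The 26 channel genes under the filter were dim in bound RNA, where none of their probe sets exceeded 68.2 on any array. With no filter, 9 of them were called lower, 0 higher by limma and 17 not called. Of all probe sets, 36.2% were called lower and 15.6% higher with no filter. The filter used the mean over all arrays, most of them bound, so it leaves out genes dim in bound RNA most readily. The dim bound signals and the lack of rises describe that choice in part. Scn10a, a channel of pain-sensing neurons, had the largest difference, -5.20, with 1.40 and 1.00, then 4.09 and 0.88, against 213 in the input (adjusted p = 0.000154). Kcns3 had -4.98 with 437 in the input, Kcnk5 -4.95 with 294, Kcne3 -4.27 with 191 and Kcnv2 -4.26 with 159. Their bound signals lay near or under the pseudocount on some arrays, so these sizes depend on it. Kcnab3 (-4.22), Kcnmb4os1 (-4.08), Kcns1 (-2.42) and Kcnj2 (-2.16) were the others called lower.

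Genes that lie side by side on a chromosome moved together in some cases and apart in others. By the order of protein-coding genes in RefSeq's GRCm38.p6 annotation, the beta subunit genes Scn2b and Scn4b are neighbours, and both rose (2.52 and 2.06). The neighbours Cacng7, Cacng8 and Cacng6 all had negative differences (-3.59, -1.26 and -2.94), of which Cacng8 was not called. In the sodium channel cluster Scn1a rose while its neighbour Scn9a fell, and the next gene, Scn7a, had 1.70. Kcna2 lies beside Kcna3, which was under the filter. Kcnj10 rose (1.01) while its neighbour Kcnj9 had -0.71 and was not called.

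Over the 4 bound arrays, the median ratio of the highest to the lowest signal was 1.94 for channel genes, beside 1.77 over all genes. Of the 93 genes, 18 stayed within 1.5-fold and 53 within 2-fold, and 8 were over 5-fold apart. Kcnu1, a potassium channel of sperm, had the widest ratio, 15.5, followed by Kcne4 with 14.3 and Scn9a with 13.5. Some bright genes split by array and not by protein state. Kcnj3 read 697 and 555 on the first arrays of the deiminated and non-deiminated groups, which had the lower hybridisation controls, and 277 and 206 on the second. Kcnt2 read 452 and 435 on the first and 248 and 233 on the second, and Kcnc2 488 and 487 against 301 and 324. These 3 genes were singled out after their values were seen, and the control level was not the only value that split so. The 5 oligodendrocyte markers with a probe set summed to 29284 and 23221 on the first arrays and to 56663 and 68237 on the second, and the 5 choroid plexus markers to 13220 and 10954 and to 35284 and 40903. The parts of the control level and of these markers were not tested.

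Whether deimination alters the binding of channel mRNAs was addressed by setting both bound groups against each other, and limma called 0 of the 93 genes. At an unadjusted p under 0.05 there was 1 channel gene, Kcne4 (356 of all 27022 probe sets kept), and over all genes the called share was 0% as well. The difference was positive for 52 genes and negative for 41, with a median of 0.07 over channel genes and -0.0032 over all genes. The 2 groups did not overlap for 28 of 93 genes (30.1%), against 23.7% of all genes. An absolute difference over 1 occurred in 5 genes, each under 10 on at least 1 bound array: Kcne4, Kcnj12, Kcnj4, Kcnu1 and Scn9a.

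Kcne4, an inhibitory accessory subunit of Kv channels, had the most negative difference, with 28.2 and 5.30 with deimination, 42.0 and 75.5 without it. The groups did not overlap, but the difference, -1.79 (95% interval -3.36 to -0.23), had an adjusted p = 0.9999, and it shrank to -0.91 when deiminated replicate 2 was left out. Kcnj12 had -1.24 (-2.95 to 0.46), Kcnk12 -0.82 (-2.04 to 0.39) and Kcnip2 -0.58 (-1.33 to 0.17), also without overlap. In the other direction, Kcnk6, a leak channel, read 105 and 142 against 74.7 and 75.1, a difference of 0.68 (-0.24 to 1.59). Kcnmb4, the neuronal beta subunit of the large-conductance channel, read 580 and 686 against 554 and 305, a difference of 0.61 (-0.14 to 1.36). Scn4b had 0.55 (-0.12 to 1.22) and Kcna2 0.54 (-0.22 to 1.29), both with every deiminated array above the non-deiminated ones. Adjusted p was 0.9999 for each of these genes.

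**Figure D4:**
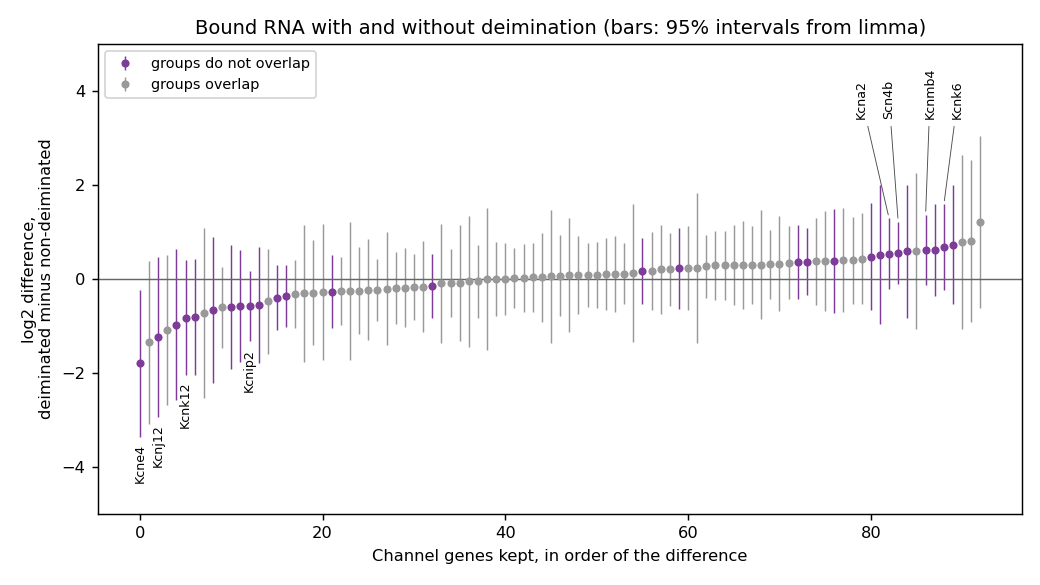
Log2 difference, deiminated minus non-deiminated (y axis), for the 93 channel genes kept, in order of that difference (x axis); points are limma estimates and bars their 95% intervals. Purple marks the 28 genes whose groups do not overlap, and the interval of 1 gene, Kcne4 (-3.36 to -0.23), leaves out 0.

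The intervals say how large a difference could have gone unseen. For 23 of the 93 channel genes the 95% interval lay within 2-fold in both directions (32.9% of all genes), and for 79 within 4-fold (89.1% of all genes). Kcnj10 (0.02, -0.62 to 0.67), Scn8a (0.11, -0.54 to 0.76) and Kcna1 (-0.23, -0.89 to 0.43) were among the 23. Smaller differences were not detectable with 2 arrays a group. The calls against input that were made with each bound group alone share the input array and are not compared here: the medians over channel genes were 0.12 for deiminated minus input and 0.22 for non-deiminated minus input.

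Other ion channels and the partners of channels were read from 2 lists fixed with the rest. The first held 25 kept genes of other channel families (HCN, acid-sensing, epithelial sodium, chloride, TRP and cyclic-nucleotide-gated channels). Of these, 6 were called higher (24%) and 8 lower (32%), against 31.6% and 24.8% of all genes. Their median of -0.74 lay 0.86 below that of all genes, and 0.0078 to 0.90 below it under the 4 other scalings. Of 28 kept anchors and partners, such as the ankyrins, contactins and MAGUK scaffolds, 11 were called higher (39.3%) and 4 lower (14.3%). Their median of 0.69 lay 0.57 above that of all genes but 0.097 below it after cyclic loess.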

How the data were processed

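The deposited table gives a linear signal intensity for each probe set on each array. MAS5 is the tool in the submitters' processing notes, with no version. With 2% trimmed from either end, each array averages 150.001; that the arrays were scaled to a common level is read from the values alone. Values were used as deposited, and log2 was taken after adding 4.18 (the overall median over 10). Probe sets whose mean log2 signal reached the 40th percentile were kept (27022 of 45037, without 64 controls), and the brightest stood for a gene. Probe sets were named from the platform annotation, and all 119 symbols were in the gene table used here.

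Groups were compared with limma 3.58.1 in R 4.3.3 (lmFit, eBayes with a trend), fitted to all 5 arrays with 3 group means, 2 residual and 10.91 prior degrees of freedom; p-values were adjusted over all probe sets kept. The fit was tested on simulated data, and precision is limited by the few arrays.

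Named are the 10 called genes with the largest rise and the 10 with the largest fall, the 4 with the largest moderated t in each direction between deiminated and non-deiminated among groups without overlap, and genes fixed by name, some of which are not reported here; others illustrate counts and were chosen after their values were seen. The members and all lists were chosen with earlier results of these data known. Alternatives covered the pseudocount (1.05 and 16.7), filter (60th percentile or none), scaling, variance model, probe set choice, 2 blocks, a fit of the bound arrays only and leaving out 1 bound array at a time.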

Additional observations from a re-analysis of the deposited data

How the results depend on the processing

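All alternatives were planned with earlier results of these data known. The 28 genes called higher became 49 after median centring and 0 (limma) after hybridisation control scaling, with 20 to 31 on leaving out a bound array. The 19 called lower became 1, 0 (limma) and, with the 60th percentile filter, 8; leaving out an array gave 19 to 23. Without deiminated replicate 1, 20 of the 28 remained called higher, and without deiminated replicate 2, 22. The median of 0.25 became -0.26 with no filter, 0.50 with the 60th percentile filter, 0.62 after quantile normalisation, -0.27 after cyclic loess, 1.73 after median centring and 4.66 after hybridisation control scaling.

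Signs of named genes against input also turned. Quantile normalisation gave Cacna1b 0.17 and Cacna1c 0.10. Cyclic loess gave Kcnc1 -0.12, Kcnq3 -0.36, Kcnj10 -0.27 and Scn1a -0.18. Median centring gave Kcna1 1.30, Kcnma1 0.88, Cacna1b 1.48, Cacna1c 0.93, Cacnb4 1.02 and Cacng2 0.91. Hybridisation control scaling gave Cacng7 1.64, Kcnh5 1.66, Cacna1f 1.70, Cacna2d4 1.91, Kcnj6 2.33, Kcng4 2.37, Kcnd1 2.66, Scn9a 2.35, Kcna1 5.08, Kcnma1 4.40, Cacna1b 5.03, Cacna1c 4.40, Cacnb4 4.83 and Cacng2 4.66. The mean of all probe sets gave Cacna2d1 -0.22, Kcna1 0.57, Kcnma1 0.75, Cacna1a -0.44, Cacna1b 2.69, Cacnb4 1.16 and Cacng2 0.028. Leaving out a bound array gave Cacna1b -0.33 to 0.22. The causes were not tested. Between deiminated and non-deiminated, 0 channel genes were called by limma under every alternative, and no named gene turned sign. Replicate numbers only follow sample order and pair no samples, so they were not used as a block. With the protein name of the titles as a block, 25 genes were called higher and 19 lower, and among the named genes the calls of Kcnj10, Kcnq3 and Scn1a were lost. With arrays of like hybridisation control level as a block, 30 were called higher and 24 lower, and among the named genes Cacna1a was gained. The single input array and dim input signals limit the precision.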
